A study of Mus musculus with 9 samples.

Results

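Integrin subunits of T cells were followed in mouse regulatory T cells with and without Sirt1 targeting. The members were taken by name, and all their probe sets on the array were read: 9 subunit genes of the 12393 genes on the table, with 19 of its 22626 probe sets. They are the beta subunits Itgb1, Itgb2, Itgb3 and Itgb7 and the alpha subunits Itga4, Itga6, Itgae, Itgal and Itgav. RNA of magnetically separated CD4+CD25+ cells was measured on 9 Affymetrix arrays, 1 per sample, in 3 groups of 3. The groups were wild type (WT) on the C57BL6 background, and conditional Sirt1 knockouts by either of a pair of Cre recombinases, CD4 cre (CD4-cre) or Foxp3 cre (Foxp3-cre). CD4 Cre acts in T cells at large, including the precursors of regulatory T cells, and Foxp3 Cre acts where the gene of the regulatory T cell factor is expressed. Sirt1 is a protein deacetylase, and the sources used here do not give the part of its gene that Cre removes. Whether samples of a group are separate animals is not said in the labels, and a p-value then covers only the spread among these samples, possibly a technical one. In these bulk samples, fewer cells of a type and less RNA per cell cannot be told apart.

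Integrins are pairs of an alpha and a beta subunit that span the membrane and bind cells to other cells and to the extracellular matrix. On T cells, Itgal pairs with Itgb2 to form LFA-1, the receptor of the ICAM proteins. Itga4 pairs with Itgb1 to bind VCAM-1 and fibronectin, or with Itgb7 to bind MAdCAM-1 of gut vessels. Itgae, known as CD103, pairs with Itgb7, binds E-cadherin of epithelia and is used as a marker of a subset of regulatory T cells. TGF-beta is known to raise Itgae in T cells, and Itgav integrins release active TGF-beta from its latent complex.

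The values are log2 signals, a unit of which is a doubling, and a gene with several probe sets is represented by the brightest. Genes with a mean signal of at least 4.979 were tested with limma, and a change was called at an adjusted p below 0.05 over the 7436 genes tested. Itgb3, with a mean of 4.92, fell just below that level, so 8 of the 9 members were tested. Levels of different genes were not set against each other, because probes differ in how brightly they read.

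WT replicate 2 was unlike the other arrays: it correlated with them at 0.982 to 0.987, against 0.992 or more among the other 8, and its signal ratio of 5' over 3' actin probes was lower, at -1.53 on the log2 scale against -0.68 to -0.45. The Sirt1 probe set read 7.91, 6.77 and 7.90 in WT, 7.59 to 7.69 in CD4-cre and 7.47 to 7.66 in Foxp3-cre. WT replicate 2 lay below all knockout arrays and the other WT arrays lay above them, so the set did not separate the groups. A probe set outside the deleted part checks nothing. The 7 T cell markers on the table had array means between 10.63 and 10.83. Foxp3 itself read 2.67, 3.38 and 2.83 in the Foxp3-cre arrays, against 9.16 to 9.69 on the other 6. Those samples thus lack the defining transcript of regulatory T cells as this probe set reads it, while Il2ra (CD25) read 8.39 to 8.79 on all 9. Of 9 regulatory T cell markers, Foxp3 was the only 1 called in Foxp3-cre against WT, beside 3.36% of all tested genes. Of the 9, 4 were higher and 5 lower, with a median difference of -0.03. Most markers of myeloid cells were also higher in Foxp3-cre, as given below beside the result for Itgb1.

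Promoter sequences were looked up for the members in a RefSeq table of the build GRCm38.p6, which held 4 of the 9: Itgb1, Itgb7, Itga4 and Itgav. Each runs from 250 bases before to 50 bases after the gene's start. Those of Itgb1 and Itgb7 are shown because both proteins pair with the same alpha subunit, Itga4, and their signals ran in opposite directions over the arrays. Capitals mark a GC box, the motif GGGCGG, on either strand. The Itgb1 promoter lies at chr8:128685404-128685703 on the + strand and the Itgb7 promoter at chr15:102231886-102232185 on the - strand.
Itgb1: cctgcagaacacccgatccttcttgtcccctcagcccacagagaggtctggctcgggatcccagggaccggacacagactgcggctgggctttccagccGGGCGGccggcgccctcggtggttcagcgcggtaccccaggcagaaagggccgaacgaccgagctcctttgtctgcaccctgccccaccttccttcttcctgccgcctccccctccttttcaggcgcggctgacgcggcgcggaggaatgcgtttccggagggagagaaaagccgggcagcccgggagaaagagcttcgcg
Itgb7: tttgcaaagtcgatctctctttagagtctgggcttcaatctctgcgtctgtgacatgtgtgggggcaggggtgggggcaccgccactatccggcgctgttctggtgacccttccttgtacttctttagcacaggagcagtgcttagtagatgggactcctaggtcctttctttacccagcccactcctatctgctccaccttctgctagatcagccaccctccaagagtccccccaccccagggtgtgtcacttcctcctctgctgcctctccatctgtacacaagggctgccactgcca
The Itgb1 promoter has 67.3% G and C and 1 GC box, at position -151 from the start. The Itgb7 promoter has 56.3% G and C and holds no match to it. The promoters of Itga4 and Itgav each hold 1 GC box, at positions -114 and 7. Of all 32851 promoters in the table, 35.7% hold that motif. An ETS core (CCGGAAG, in 8.86% of all promoters), a forkhead motif (TGTTTAC, in 3.65%) and an E-box (CACGTG, in 7.15%), also searched on both strands, were not found in any of the 4 windows.

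The first comparison asks how the integrins differ when Sirt1 is targeted with Foxp3 Cre. Itgb1, a beta subunit of matrix-binding integrins, rose in Foxp3-cre. It was the only 1 of the 8 tested members to pass, against 3.36% of all tested genes and 1.69% called in that direction. At an unadjusted p below 0.05 there were 3 members (Itgb1, Itgae and Itgb7), against 21.3% of all tested genes. Itgae stood higher and Itga4 and Itgb7 lower, each short of the threshold. Itgal, Itgb2, Itgav and Itga6 differed from WT by 0.15 or less.

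Itgb1 read 7.88, 7.41 and 7.78 in WT, 7.76, 7.61 and 7.74 in CD4-cre, with 8.57, 8.46 and 8.51 in Foxp3-cre. All 3 Foxp3-cre arrays lay above the other 6 with no overlap, and the CD4-cre arrays lay within the range of WT. The means were 7.69 ± 0.25, 7.70 ± 0.08 and 8.51 ± 0.06 (SD, n = 3). Against WT, the difference in Foxp3-cre was 0.83 (SE 0.12, 95% interval 0.56 to 1.09, limma adjusted p = 0.0127), a 1.77-fold rise. In a fit of these 2 groups alone the adjusted p was 0.0762, which misses the threshold. Without WT replicate 2, the lowest array for this gene, the difference was 0.68 and stayed past the threshold (adjusted p = 0.00324).

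**Figure D1:**
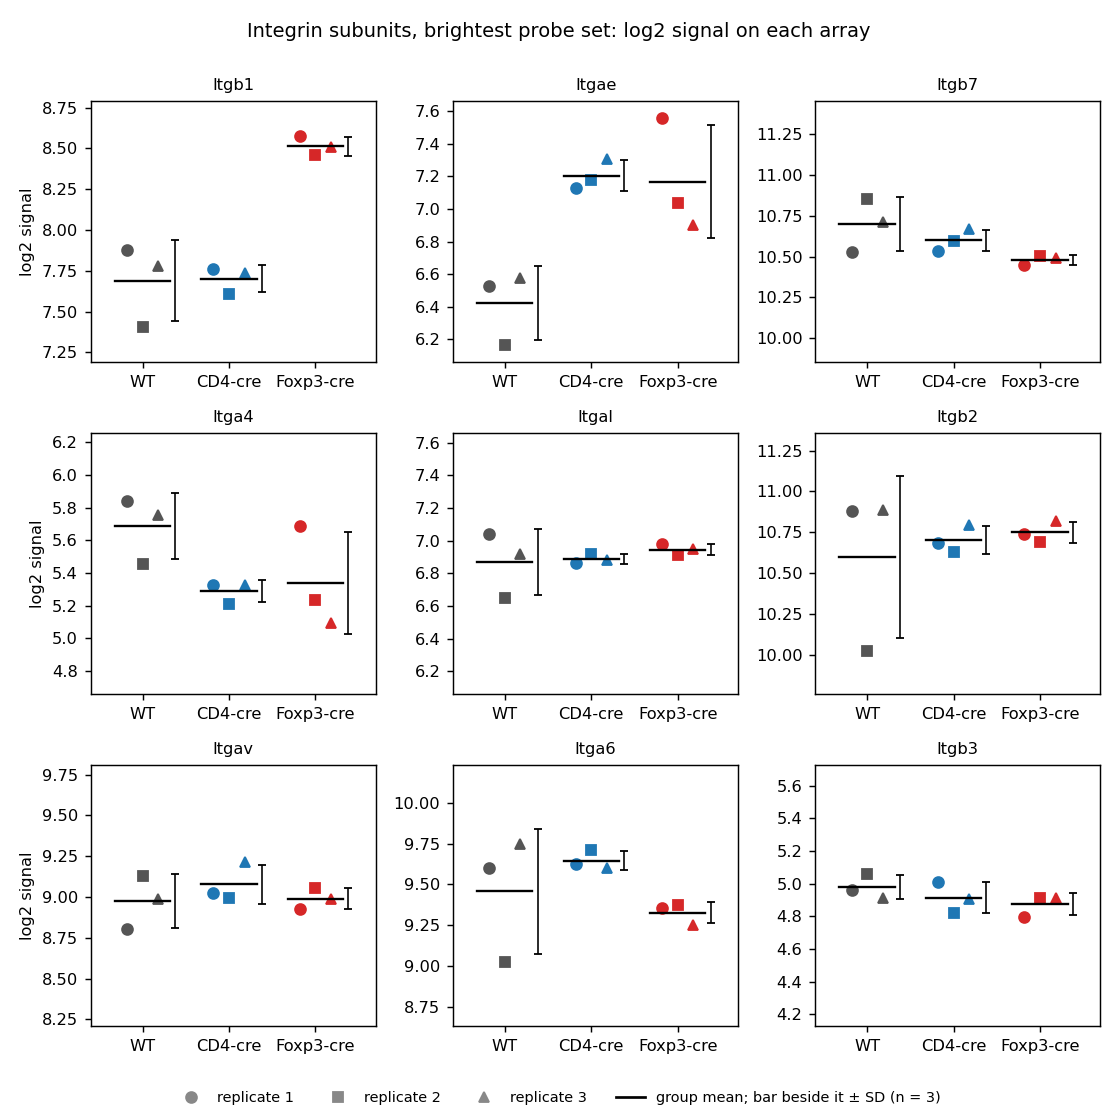
Log2 signal of the 9 integrin subunits (brightest probe set) on each of the 9 arrays, by group, with the group mean as a line and its SD (n = 3) as a bar. Each panel has its own axis, which does not start at 0; the Foxp3-cre arrays of Itgb1 read 8.46 to 8.57, above all other arrays, and both knockouts of Itgae read 6.90 to 7.56, above the WT arrays at 6.16 to 6.58.

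Itgb1 has 6 probe sets, of which 2 were bright enough to be tested one by one. The second set read 7.67, 7.20 and 7.77 in WT, 7.47, 7.43 and 7.56 in CD4-cre, with 8.22, 8.16 and 8.37 in Foxp3-cre. The Foxp3-cre arrays again lay above all others, by 0.70 against WT (SE 0.14, limma adjusted p = 0.0389 over 13576 probe sets, of which 2.64% were called). The third fell below the level for testing and read 4.08 to 4.55 in WT, 4.23 to 4.29 in CD4-cre and 4.53 to 4.91 in Foxp3-cre. Its Foxp3-cre arrays lay above those of CD4-cre and overlapped WT by 1 array, with a difference of 0.41 against WT. The other 3 sets lay in the lowest 14.7% of the signals of their arrays, and their Foxp3-cre minus WT differences were 0.17, -0.16 and 0.01. Averaged over all 6 sets, dim ones included, the difference of Itgb1 was 0.33, and that mean signal lay below the level for testing.

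**Figure D2:**
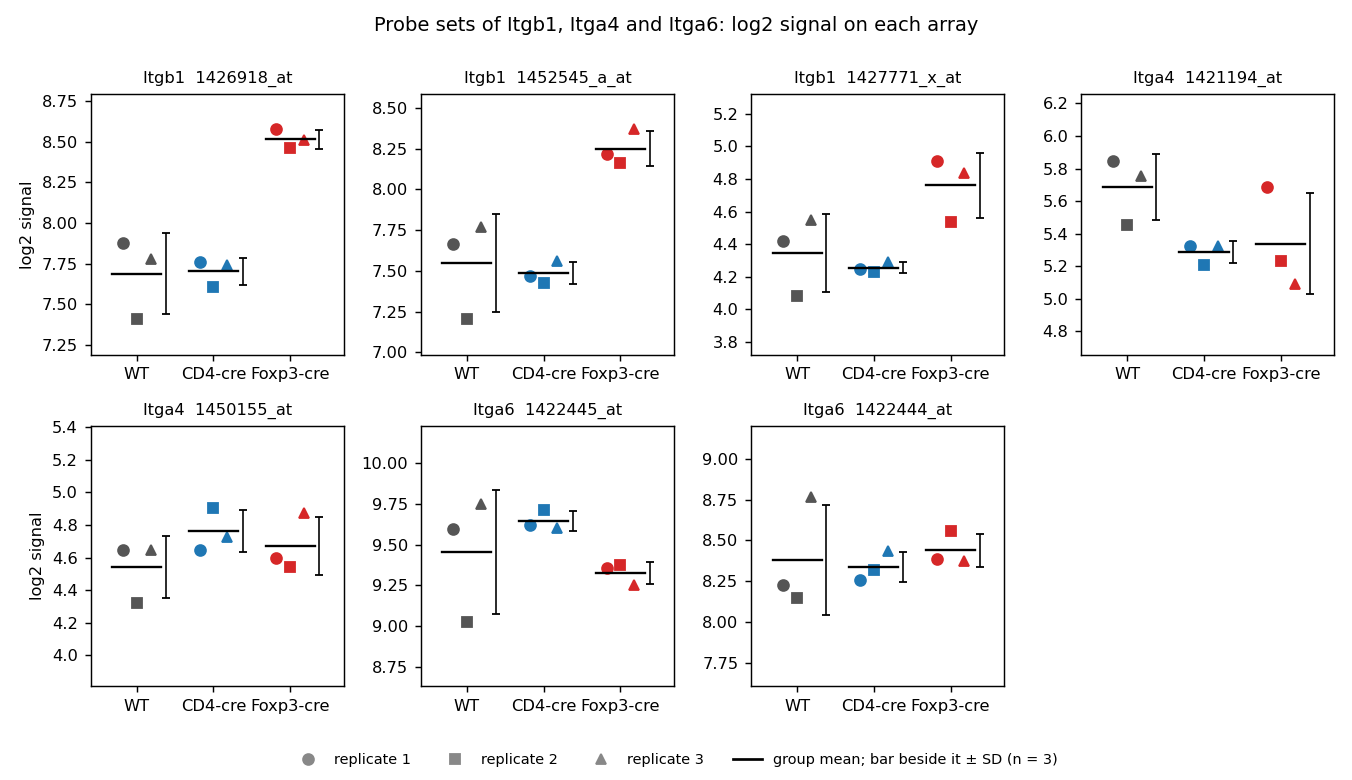
Log2 signal on each array for 3 probe sets of Itgb1 and both brighter sets of Itga4 and Itga6, by group, with the mean as a line and the SD (n = 3) as a bar; each panel has its own axis. The Foxp3-cre mean is the highest in all 3 Itgb1 panels, whereas the pairs of Itga4 sets and of Itga6 sets show different orders of the groups.

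Markers of myeloid cells moved in the same arrays. Of 10 neutrophil markers on the table, 6 rose in Foxp3-cre (Mpo, Elane, Camp, Ngp, Ltf and Lcn2), and the summed signal of all 10 ran from 12.99 to 13.87 in WT, 13.13 to 14.28 in CD4-cre and 14.15 to 15.20 in Foxp3-cre, on the log2 scale. With WT replicate 2 left out, 5 of them passed, and Ltf did not. Of all tested genes, 3.36% were called in Foxp3-cre, or 7.63% without that array. By group means of all 9 arrays, 9 of the 10 markers were higher in Foxp3-cre than in WT. The exception, Csf3r, stood at -0.33. While 8 markers lay wholly above WT there, Csf3r and Cxcr2 overlapped it. In CD4-cre 7 markers were higher and 3 lower, with Csf3r at -1.53. Of 9 monocyte and macrophage markers, 1 of the 5 tested rose (C1qb, by 2.47), with sums of 9.95 to 10.67, 9.60 to 10.93 and 10.79 to 12.10. Itgam, the alpha subunit that defines myeloid cells, was below the level for testing and read 3.50 to 4.50 in WT, 3.29 to 4.18 in CD4-cre and 4.06 to 5.54 in Foxp3-cre. CD4-cre replicate 3 and Foxp3-cre replicate 1 had near equal neutrophil marker means, 9.08 and 9.16, with Itgb1 at 7.74 and 8.57. Within Foxp3-cre, the array with the lowest marker mean, replicate 1, had the highest Itgb1 signal. Not every marker ran in the order of the mean. Mpo read 6.96, 6.30 and 6.69 in Foxp3-cre replicates 1 to 3, the order of Itgb1, and 5.96 in CD4-cre replicate 3. The part of these cells in the difference of Itgb1 was not tested.

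**Figure D3:**
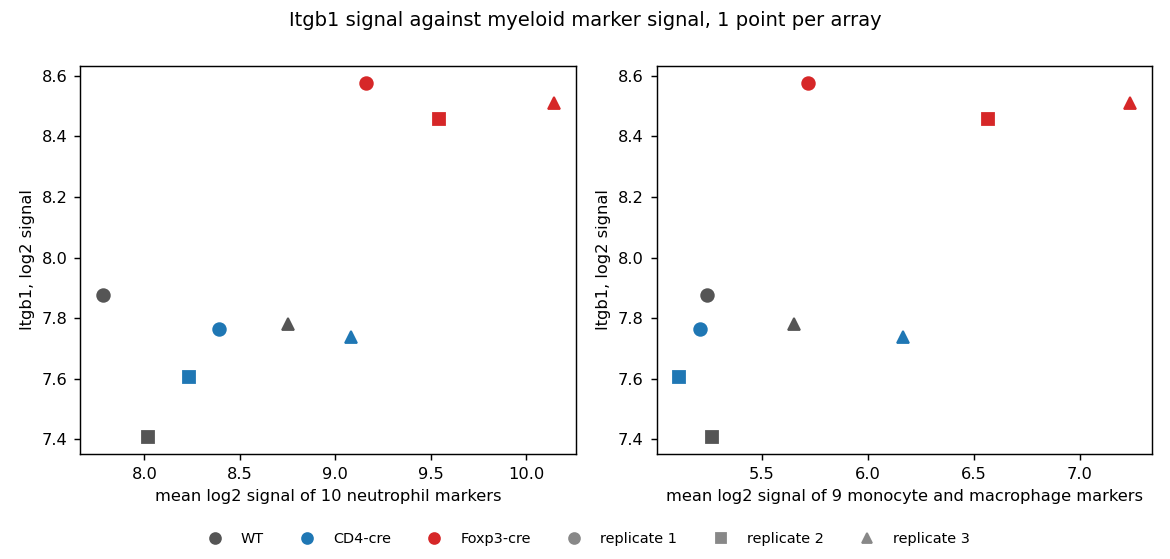
Log2 signal of Itgb1 against the mean log2 signal of 10 neutrophil markers (left) and 9 monocyte and macrophage markers (right), 1 point per array, coloured by group. The 3 Foxp3-cre arrays have the highest neutrophil means, 9.16 to 10.14, and the highest Itgb1; among the other 6 arrays Itgb1 stays at 7.88 or below over neutrophil means of 7.78 to 9.08.

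The genes whose signals ran most like Itgb1 over the 9 arrays were Ptpn11 (Pearson r = 0.975), Kif23 (0.939), Ahr (0.938), Ankrd46 (0.931) and Il1r2 (0.930). These values describe 9 arrays that share 3 groups and 1 normalization. Ptpn11 read 8.37 to 8.51 in WT, 8.50 to 8.56 in CD4-cre and 8.75 to 8.87 in Foxp3-cre, the same grouping of arrays as Itgb1.

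Itgae, the alpha subunit of the E-cadherin receptor, was higher in both knockouts by a like amount, and neither difference passed. It read 6.53, 6.16 and 6.58 in WT, 7.13, 7.18 and 7.31 in CD4-cre, with 7.56, 7.04 and 6.90 in Foxp3-cre. All 6 knockout arrays lay above all 3 WT arrays, and the CD4-cre arrays lay within the range of Foxp3-cre. The difference was 0.78 in CD4-cre (SE 0.17, 95% interval 0.39 to 1.17, limma adjusted p = 0.0921), a 1.72-fold difference. In Foxp3-cre it was 0.74 (SE 0.17, 95% interval 0.35 to 1.13, adjusted p = 0.0518), or 1.67-fold. Both comparisons use the same WT arrays. The direct difference between the knockouts was -0.04 (95% interval -0.42 to 0.35); that interval still allows a difference of either sign.

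The Itgae calls turned on single choices. Leaving out Foxp3-cre replicate 1, the highest of the 9 arrays, brought CD4-cre past the threshold (adjusted p = 0.0330). Quantile normalization gave an adjusted p of 0.0433 in Foxp3-cre. With a block for the replicate number in the fit, Itgae passed in Foxp3-cre as well, and not in CD4-cre. Without WT replicate 2, the lowest array, the differences were 0.65 (adjusted p = 0.0813) and 0.61 (adjusted p = 0.0657). Itgae has 1 probe set on the array, so no second set could be read beside it.

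Summed markers of several other cell types also separated CD4-cre from WT, in the arrays where Itgae was higher and Itga4 lower. The 5 markers of NK and innate lymphoid cells summed to 10.33 to 10.94 in CD4-cre against 10.96 to 11.07 in WT, and the 6 plasma cell markers to 11.96 to 12.09 against 12.33 to 12.38. The 7 B cell markers summed to 10.08 to 10.15 in CD4-cre, just above WT at 9.22 to 10.08, and the 5 thymocyte markers to 9.07 to 9.22 against 8.70 to 8.98. A sum weighs the brightest markers most. By the mean log2 signal of a list, NK and innate lymphoid cells (7.36 to 7.91 against 7.89 to 8.13) overlapped WT. So did B cells (6.16 to 6.34 against 5.63 to 6.27), while plasma cells and thymocytes did not. Of the 4 tested plasma cell markers, 2 were higher and 2 lower in CD4-cre. In Foxp3-cre the corresponding sums were 10.35 to 11.02, 11.67 to 12.32, 9.31 to 11.07 and 8.59 to 9.16. The plasma cell sums alone lay wholly to one side of WT, by a narrow margin. By list means, plasma cells overlapped WT (7.04 to 7.51 against 7.39 to 7.51). The means of NK and innate lymphoid cells lay just below WT (7.27 to 7.88 against 7.89 to 8.13). No marker of these 4 lists passed in limma in CD4-cre or Foxp3-cre against WT, though the NK marker Klrk1 was called lower in Foxp3-cre when WT replicate 2 was left out. At an unadjusted p below 0.05 the counts in CD4-cre were 3 of 5 for NK and innate lymphoid cells, 1 of 4 for plasma cells, 0 of 4 for B cells and 0 of 2 for thymocytes. The share over all tested genes was 14.1%. Dendritic cell sums also lay below WT in CD4-cre, narrowly (8.62 to 8.827 against 8.833 to 9.03), while their list means overlapped WT. Sums of the 9 regulatory T cell markers lay above WT in CD4-cre (12.74 to 12.79 against 12.59 to 12.73), as did their list means. The 2 CD8 T cell markers overlapped WT in CD4-cre, but their sums lay above it in Foxp3-cre (6.85 to 7.30 against 6.41 to 6.82). None of these further markers passed in the comparison named. The part of any of these cell types in the differences of Itgae and Itga4 was not tested.

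The genes most like Itgae over the 9 arrays were Thoc6 (r = 0.978), Anapc1 (0.971), Fam216a (0.969), Aebp2 (0.967) and E2f1 (0.965). E2f1 read 5.14 to 5.26 in WT, 5.64 to 5.67 in CD4-cre and 5.50 to 5.93 in Foxp3-cre, with all knockout arrays above WT. None of the 10 genes named for likeness was named for both Itgb1 and Itgae, and the correlation between Itgb1 and Itgae themselves was 0.49.

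Itgb7, the partner of Itgae, did not follow it. It read 10.53, 10.86 and 10.71 in WT, 10.54, 10.60 and 10.67 in CD4-cre, with 10.45, 10.50 and 10.49 in Foxp3-cre. The Foxp3-cre arrays lay below all other arrays, by a narrow margin, and CD4-cre lay within WT. The difference was -0.22 in Foxp3-cre (SE 0.09, 95% interval -0.43 to -0.01, limma adjusted p = 0.214). In CD4-cre it was -0.10 (adjusted p = 0.642). Over the 9 arrays the correlation of Itgb7 was -0.66 with Itgae and -0.80 with Itgb1. Without WT replicate 2, the highest Itgb7 array, these were -0.32 and -0.75.

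Itga4, the alpha partner of Itgb1 and Itgb7, was lower in the knockouts by its brightest probe set. That set read 5.84, 5.46 and 5.76 in WT, 5.33, 5.21 and 5.32 in CD4-cre, with 5.69, 5.23 and 5.09 in Foxp3-cre. All CD4-cre arrays lay below WT, while Foxp3-cre replicate 1 lay inside the WT range. The difference was -0.40 in CD4-cre (SE 0.16, 95% interval -0.75 to -0.05, limma adjusted p = 0.302) and -0.35 in Foxp3-cre (adjusted p = 0.238). The second set of Itga4 had the opposite sign, 0.22 in CD4-cre and 0.13 in Foxp3-cre, and its groups overlapped. The third read 2.11 to 2.75. The probe sets of Itga4 therefore disagree on its direction.

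Neither chain of LFA-1 passed in either knockout. Itgal read 7.04, 6.65 and 6.92 in WT, and 6.86 to 6.98 over the 6 knockout arrays. Itgb2 read 10.88, 10.03 and 10.89 in WT, and 10.63 to 10.82 over the knockout arrays. WT replicate 2 was the lowest of the 9 arrays for both chains. For Itgal the other arrays overlapped between groups, while for Itgb2 the other WT arrays lay above all 6 knockout arrays. The differences of Itgal were 0.02 in CD4-cre (95% interval -0.21 to 0.24) and 0.08 in Foxp3-cre (-0.15 to 0.30), and those of Itgb2 were 0.11 (-0.35 to 0.56) and 0.15 (-0.30 to 0.60). The correlation between the chains over the 9 arrays was 0.90, and 0.47 without WT replicate 2. Without that array the differences of Itgb2 were -0.18 and -0.13 and those of Itgal -0.09 and -0.04, so both directions rest on it.

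Itga6, a laminin receptor subunit that pairs with Itgb1 or Itgb4, read 9.60, 9.02 and 9.75 in WT, 9.62, 9.71 and 9.60 in CD4-cre, with 9.36, 9.37 and 9.25 in Foxp3-cre. The Foxp3-cre arrays lay below all CD4-cre arrays and between WT replicate 2 and the other WT arrays. The difference was 0.19 in CD4-cre (limma adjusted p = 0.611) and -0.13 in Foxp3-cre (adjusted p = 0.652). Without WT replicate 2, Itga6 was lower in Foxp3-cre by -0.35 and passed (adjusted p = 0.0321). The second Itga6 probe set did not show this: its differences were -0.04 and 0.06, and WT replicate 3 was its highest array.

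Itgav, the alpha subunit of the integrins that activate TGF-beta, read 8.80 to 9.13 in WT, 8.99 to 9.21 in CD4-cre and 8.93 to 9.06 in Foxp3-cre. The groups overlapped, with differences of 0.10 (95% interval -0.13 to 0.33) and 0.02 (-0.21 to 0.24). A dim second set read 3.48, 3.40 and 4.17 in WT and between 4.02 and 4.17 in the knockouts, and the third read 3.75 to 4.08. Itgb3, the beta partner of Itgav and of the platelet subunit Itga2b, read 4.80 to 5.06 over the 9 arrays, with differences of -0.07 and -0.10 that were not tested among the genes. Itga2b read 5.76 to 6.19, and Pf4, a platelet chemokine, read 3.42 to 4.49, highest in WT replicate 2, which was also the highest array for Itgb3.

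Over the 8 tested members, the CD4-cre comparison called 0 of 8 (limma, 2 at an unadjusted p below 0.05, which were Itgae and Itga4), against 0.659% of all tested genes and 14.1% at the unadjusted level. Of the 8, 1 lay wholly above WT (Itgae) and 1 wholly below (Itga4), against 11.9% and 9.16% of all tested genes. In Foxp3-cre, 2 members lay wholly above WT (Itgb1 and Itgae) and 1 wholly below (Itgb7), against 11.1% and 12.2%. The median difference of the members was 0.06 in CD4-cre and 0.05 in Foxp3-cre, beside 0.03 and 0.01 over all tested genes.

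**Figure D4:**
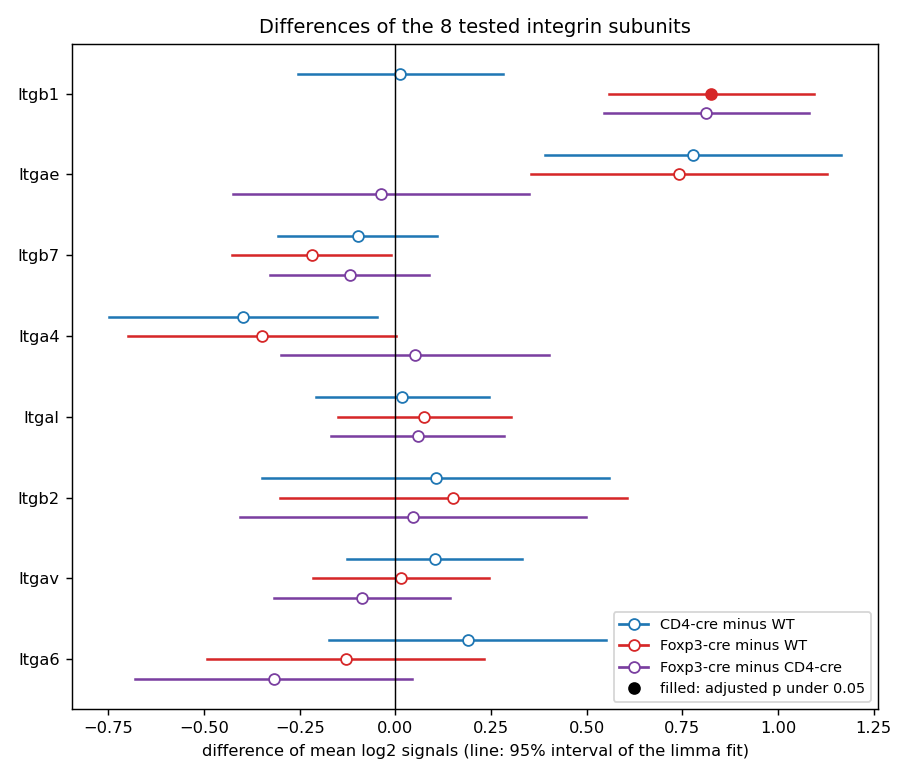
Difference of mean log2 signals for the 8 tested integrin subunits in 3 comparisons, with the 95% interval of the limma fit; a filled point marks an adjusted p below 0.05. The one filled point is Itgb1 in Foxp3-cre minus WT, at 0.83; the intervals of Itgae lie above 0 in both knockouts against WT and span 0 between the knockouts.

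The comparison of Foxp3-cre with CD4-cre asks whether the knockouts differ, and it is the test of whether their differences from WT are unequal. Itgb1 was higher in Foxp3-cre by 0.81 (SE 0.12, 95% interval 0.54 to 1.08, limma adjusted p = 0.0805), the 5th smallest p of the 7436 genes, and it did not pass. Of the 8 members 0 passed (1 at an unadjusted p below 0.05), against 0.0134% of all tested genes, which is 1 gene, and 11.3% at the unadjusted level. Itgb1 lay wholly above CD4-cre, as did 10.9% of tested genes. Itgb7 and Itga6 lay wholly below it, at -0.12 and -0.32, as did 18.8%. The difference of Itgb1 passed without WT replicate 2 (adjusted p = 0.00467) and in a fit of these 2 groups alone (adjusted p = 0.0146). It also passed with a block for the replicate number in the fit. The other 7 tested members had adjusted p-values of 0.491 or more here.

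Among 18 other integrin subunits, 13 were on the table and 5 were tested. For this and the following lists, the shares of all tested genes called were 0.659% in CD4-cre, 3.36% in Foxp3-cre and 0.0134% between the knockouts. At an unadjusted p below 0.05 they were 14.1%, 21.3% and 11.3%. In Foxp3-cre 1 of the 5 rose: Itgb2l, a beta subunit gene akin to Itgb2 that is known from neutrophils. It read 4.99, 3.75 and 5.38 in WT, 5.51, 5.38 and 6.10 in CD4-cre, with 6.22, 6.48 and 7.18 in Foxp3-cre, with a difference of 1.92 (SE 0.40, limma adjusted p = 0.0375). Its signal ran with the neutrophil markers above, and its part was not tested. In CD4-cre 0 of the 5 passed (2 at an unadjusted p below 0.05), the largest differences being Itgb2l at 0.96, or 0.48 without WT replicate 2, and Itgb5 at -0.41. Between the knockouts 0 of 5 passed (1 unadjusted), with Itgb2l at 0.96 and the dendritic cell subunit Itgax at 0.24.

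Of 21 listed integrin ligands, 19 were on the table and 6 were tested. Icam2, a ligand of LFA-1 that leukocytes themselves carry, fell in Foxp3-cre. It read 8.93, 8.95 and 8.85 in WT, 8.69, 8.67 and 8.58 in CD4-cre, with 8.47, 8.59 and 8.44 in Foxp3-cre, with a difference of -0.41 (SE 0.08, limma adjusted p = 0.0249). All 6 knockout arrays lay below WT. No other ligand passed in Foxp3-cre (4 of 6 at an unadjusted p below 0.05). The largest difference there was that of Vcam1 at 2.26, which read 4.76 to 5.81 in WT, 5.04 to 6.82 in CD4-cre and 6.23 to 8.31 in Foxp3-cre. The 6 knockout arrays ranked in the same order for Vcam1 and the macrophage marker C1qb, and the WT arrays did not. The part of macrophages in the difference of Vcam1 was not tested. In CD4-cre 0 of 6 passed (2 unadjusted), with the laminin chain Lamc1 at 0.58, or 0.32 without WT replicate 2, and fibronectin, Fn1, at -0.55. Between the knockouts 0 of 6 passed (4 unadjusted), with Vcam1 at 1.75 and Fn1 at 1.18.

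The list of integrin activators and adaptors, which link the tails of integrins to the cytoskeleton and to signalling, had 36 of 42 genes on the table and 30 tested. Itgb1bp1, which encodes a protein that binds the tail of Itgb1, rose in Foxp3-cre. It read 7.99, 7.91 and 7.91 in WT, 8.18, 8.28 and 8.12 in CD4-cre, with 8.23, 8.28 and 8.29 in Foxp3-cre, with a difference of 0.33 (SE 0.07, limma adjusted p = 0.0452). All knockout arrays lay above WT, and the difference in CD4-cre was 0.25 (adjusted p = 0.173). No other gene of the list passed in Foxp3-cre (5 at an unadjusted p below 0.05), and the list's median was -0.02. The largest difference in Foxp3-cre was that of Vcl at 0.86. In CD4-cre 0 of 30 passed (8 unadjusted), with vinculin, Vcl, at 0.50 and Sharpin, an inhibitor of integrin activation, at 0.29. Between the knockouts 0 of 30 passed (5 unadjusted), with Skap2 at 0.47 and Tgfb1i1 at -0.40.

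TGF-beta signalling genes and regulators of Itgae had 13 tested of 19 on the table, and 0 passed in each of the 3 comparisons (3, 3 and 0 at an unadjusted p below 0.05). The largest differences in CD4-cre were those of Ltbp3, a latent TGF-beta binding protein, at -0.48, and of the repressor Tgif1 at 0.43. In Foxp3-cre they were Cbfb, the partner of the RUNX factors, at 0.35 and Ltbp3 at -0.31. Without WT replicate 2, Ltbp3 stood at -0.23 and Tgif1 at -0.07 in CD4-cre, and Cbfb at 0.01 (0.00765) and Ltbp3 at -0.06 in Foxp3-cre. All but that of Ltbp3 in CD4-cre thus rest largely on that array. For Ltbp3 a part remained, not called, and the CD4-cre arrays (6.17 to 6.24) lay below the other WT arrays (6.35 and 6.50). Between the knockouts the largest differences were Tgif1 at -0.45 and Ltbp3 at 0.17. The list's median was 0.05 in CD4-cre, or -0.03 without that array, and 0.00 (0.00117) in Foxp3-cre. Of the 13 tested genes, 2 lay wholly above WT in each knockout, and 2 (CD4-cre) or 1 (Foxp3-cre) wholly below. Such positions were common over all tested genes. With CD4 Cre, 11.9% of them lay wholly above WT, while 9.16% lay wholly below. For Foxp3 Cre these shares were 11.1% above, with 12.2% below. The list genes above WT were Tgfbr1 and Runx3. Tgfbr1 read 8.27 to 8.55 in WT against 8.66 to 8.88 over the knockout arrays, and Runx3 5.35 to 5.48 against 5.54 to 5.85. Without WT replicate 2, Tgfbr1 stood higher by 0.32 (CD4-cre) or 0.21 (Foxp3-cre) and Runx3 by 0.22 in both, none called. Tgif1 in Foxp3-cre then stood at -0.52, also not called.

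Among tetraspanins and other membrane proteins that accompany integrins, 9 were tested and Cd81, a tetraspanin of lymphocytes, rose in both knockouts. It read 8.91, 8.56 and 8.67 in WT, 9.37, 9.37 and 9.31 in CD4-cre, with 9.16, 9.34 and 9.25 in Foxp3-cre. All 6 knockout arrays lay above WT. The difference was 0.64 in CD4-cre (SE 0.10, limma adjusted p = 0.0262) and 0.54 in Foxp3-cre (adjusted p = 0.0256), against the same WT arrays. Between the knockouts 0 of 9 passed (0 unadjusted), with Cd151 at -0.17 and Slc3a2 at -0.16.

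Of 16 tested other adhesion and homing receptors, 1 was called in each knockout: Ccr9, the chemokine receptor that guides T cells to the small intestine. It read 8.18, 8.32 and 8.30 in WT, 7.61, 7.56 and 7.38 in CD4-cre, with 7.45, 7.20 and 7.07 in Foxp3-cre. Ccr9 fell by 0.75 in CD4-cre (limma adjusted p = 0.0193) and by 1.03 in Foxp3-cre (adjusted p = 0.00328), and its other 2 probe sets were lower too, by -0.55 and -0.56 in the CD4-cre arrays and by -0.69 and -0.89 with Foxp3-cre. Between the knockouts 0 of 16 passed (3 unadjusted), with the chemokine receptors Ccr6 at -0.53 and Cxcr3 at -0.42. In Foxp3-cre against WT the list medians were -0.12 for the other subunits, -0.0011 for the ligands, -0.02 for the activators and adaptors, 0.02 for the tetraspanins and companions and -0.02 for the adhesion and homing receptors, beside 0.01 over all tested genes.

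**Figure D5:**
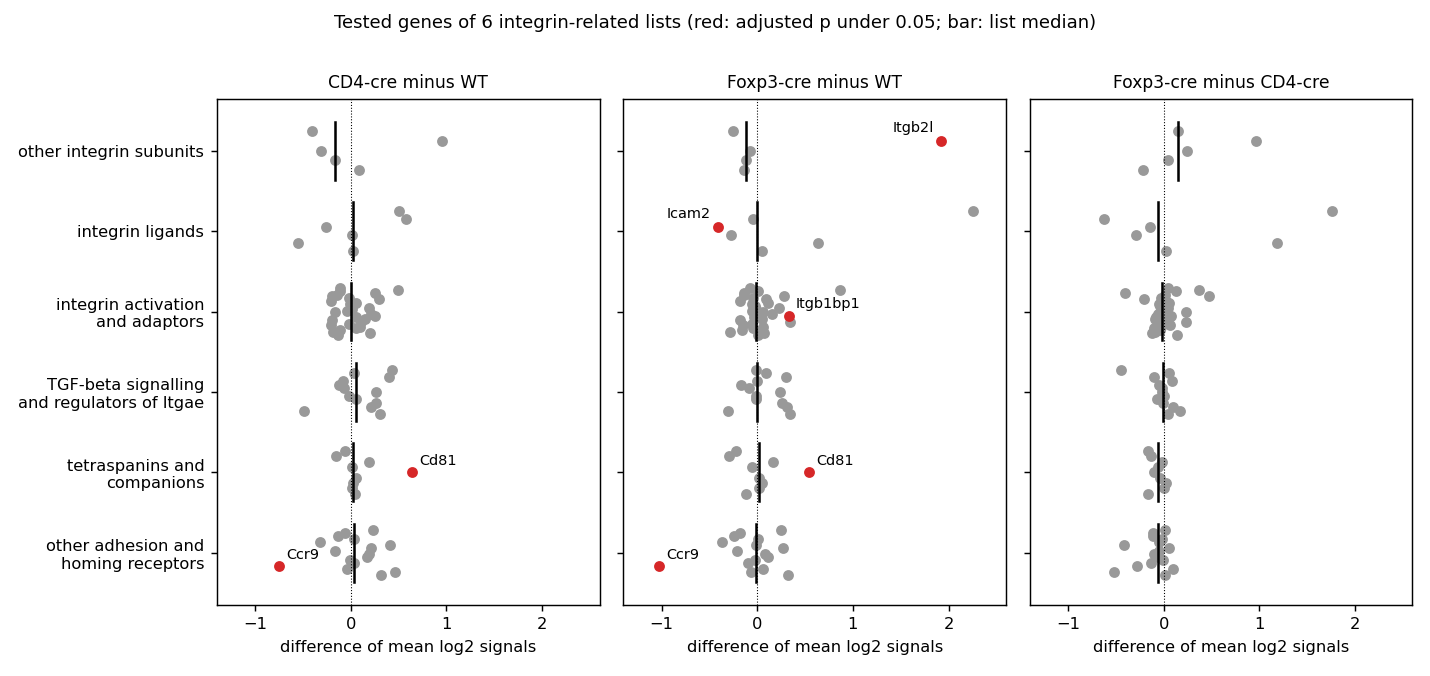
Difference of mean log2 signals for each tested gene of 6 integrin-related lists in 3 comparisons; red points passed an adjusted p of 0.05 and are named, and the bar is the list's median. Red points appear for Cd81 and Ccr9 in both knockouts against WT and for Itgb2l, Icam2 and Itgb1bp1 in Foxp3-cre, while the list medians lie between -0.17 and 0.15.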

How the data were processed

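The deposited values are the authors' log2 signals, 1 per probe set and array, made with RMA per the submitters' processing notes. The sources used here give neither the RMA version nor a genome build. RMA removes changes common to all genes and compresses dim signals. Precision is limited by having 3 arrays per group.

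Groups follow the labels. Control probe sets were left out. Genes at or above the 40th percentile of mean signal entered limma 3.58.1 (lmFit and eBayes; R 4.3.3), in 1 fit over 9 arrays with 6 residual and 3.37 prior degrees of freedom, two-sided, with Benjamini-Hochberg adjustment. An exact permutation test of 3 against 3 cannot go below p = 0.1 and was not used. The fit was tested on simulated data. Members and lists were chosen with earlier results of these data known. Named were all members, called list genes, the 2 with the largest difference where none was called, and the 5 genes most correlated with Itgb1 and Itgae. Same-numbered replicates deviated together with correlations of -0.03 to 0.49, over 0.1 in 7 of 9 pairs. The labels do not say that the numbers pair samples, so the main fit has no block. An effect shared by same-numbered replicates was not excluded. Alternatives covered the filter, probe set choice, normalization, array weights, groups fitted, a replicate block and each array left out. Leaving out WT replicate 2 for the gene lists was chosen after seeing the data.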

Additional observations from a re-analysis of the deposited data

How the results depend on the processing

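The 27 member differences were recomputed under 16 alternatives. Of the 432 values, 385 kept direction and side of the threshold, 27 changed sign (4 of them values with no test) and 20 moved otherwise. With array weights, the members called numbered 2 in CD4-cre (Itgae and Itga4), 4 in Foxp3-cre (Itgb1, Itgae, Itga4 and Itga6) and 2 between the knockouts (Itgb1 and Itga6), while all genes called numbered 1298, 1539 and 812. Quantile normalization called 2 in Foxp3-cre and 1 between the knockouts. Fits of 2 groups alone called 0 in Foxp3-cre and 1 between the knockouts. The replicate block called 2 in Foxp3-cre (Itgb1 and Itgae) and 1 between the knockouts (Itgb1), and 0 in CD4-cre as without it. Leaving out each array called 0 to 1 in CD4-cre, 1 to 2 in Foxp3-cre and 0 to 1 between the knockouts.

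The differences that changed sign lay between -0.13 and 0.19 as reported. In CD4-cre, quantile normalization gave Itgb1 -0.00064 and Itgal -0.0033, and array weights gave Itgb1 -0.086, Itgal -0.043, Itgb2 -0.17 and Itga6 -0.053. Array weights gave Itgb2 -0.12 in Foxp3-cre and Itga4 -0.051 between the knockouts. With each array left out, CD4-cre ranges were -0.13 to 0.11 for Itgb1, -0.093 to 0.10 for Itgal, -0.18 to 0.25 for Itgb2 and -0.027 to 0.33 for Itga6. In Foxp3-cre they were -0.036 to 0.16 for Itgal, -0.13 to 0.30 for Itgb2, -0.070 to 0.093 for Itgav and -0.35 to 0.016 for Itga6. Between the knockouts they were -0.23 to 0.10 for Itgae and -0.12 to 0.17 for Itga4. The sign changed without WT replicate 2 for all 4 in CD4-cre (for Itgb1 also without CD4-cre replicate 1 or 3) and for Itgal and Itgb2 in Foxp3-cre, without WT replicate 1 or Foxp3-cre replicate 2 for Itgav, and without WT replicate 3 for Itga6. Between the knockouts it changed for Itgae without CD4-cre replicate 3 or Foxp3-cre replicate 2 or 3, and for Itga4 without Foxp3-cre replicate 1. The cause was not tested. Without WT replicate 2, all genes called numbered 191, 567 and 72, and Itgb2l, Icam2, Itgb1bp1, Cd81 and Ccr9 still passed where they had. Icam1, Apbb1ip, Slc3a2, Cd96, Pecam1 and S1pr1 then passed as well in Foxp3-cre, and Lamc1 between the knockouts. Signal over background limits Itgb3, the dim sets of Itgb1 and Itgav, and Itga4.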
